A study of Mus musculus with 36 samples.

Results

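Neat1 and Malat1 are long noncoding RNAs that stay in the nucleus, and they were taken by their symbols in the gene count table of bulk RNA-seq from mouse optic nerve and retina. They are 2 of 55487 genes, and their 8 annotated transcripts are among 142699 in the transcript count table. Neat1 was chosen by its measured log2 changes after nerve crush, which had opposite signs in 2 segments of the nerve, so its crush values there are given as a description with no test. The reason given for the choice names no value of Malat1, its neighbour on chromosome 19.

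All mice were C57BL/6, aged 2 to 4 months, with no transgene or allele named. The tissues taken were 3: the unmyelinated optic nerve (UON), which is the short segment just behind the eye where axons have no myelin, the myelinated optic nerve (MON) further back, and the retina. Naïve mice had no procedure on either eye. Crush mice had 1 nerve squeezed with forceps and were taken at 3 D or 2 W. Glaucoma mice had microbeads injected into the anterior chamber of 1 eye, which raises the intraocular pressure, and were taken at 3 D, 2 W or 6 W. Each of the 18 groups of tissue, treatment and time held 4 mice in 2 libraries, a pool of 2 female mice and a pool of 2 male mice, and the UON, MON and retina of a group came from the same mice. With n = 2 pools, p-values measure the spread between pools, and a pool cannot be told apart from its sex.

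Neat1 RNA is the scaffold of paraspeckles, nuclear bodies that hold RNA binding proteins and some edited RNAs. Only the long isoform builds them. The short isoform is made from the same start by cleavage and polyadenylation at an early signal, while the long isoform runs past it and ends in a triple helix in place of a poly(A) tail. Malat1 ends in the same kind of triple helix and collects in nuclear speckles beside splicing factors. Neat1 is known to respond to cell stress, and Malat1 is among the most abundant nuclear RNAs of many cell types, including neurons and glia.

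Both genes lie on the minus strand of chromosome 19 (GRCm38, coordinates and sequences from Gencode M21). Malat1 spans chr19:5795690-5802672 (6983 bases) and Neat1 spans chr19:5824708-5845478 (20771 bases), with 22035 bases between them. Neat1-201, the long isoform, is a single exon over the whole gene. Neat1-202, the short isoform of 3004 bases in 2 exons, begins 2 bases inside it, so that 14.5% of Neat1-201 is shared and 17599 bases lie past the end of Neat1-202. The ends of 3 transcripts are shown, since they set the isoforms apart and join Neat1 to Malat1. Letters are those of DNA on the transcript strand, where T stands for U, and capitals mark the U-rich stretches TTTCTTTT and TTTGCTTT and the A-rich stretch AAAGCAAA, or the poly(A) signal AATAAA.
Neat1-201, 3′ end, chr19:5824708-5824812, minus strand: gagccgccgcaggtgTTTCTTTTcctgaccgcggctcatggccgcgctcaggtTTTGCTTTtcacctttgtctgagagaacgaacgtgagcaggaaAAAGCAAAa
Malat1-201, 103 bases near its end, chr19:5795973-5796075, minus strand: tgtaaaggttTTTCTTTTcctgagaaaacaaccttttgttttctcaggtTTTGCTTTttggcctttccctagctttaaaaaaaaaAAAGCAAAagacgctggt
Neat1-202, last 60 bases, chr19:5842307-5842366, minus strand: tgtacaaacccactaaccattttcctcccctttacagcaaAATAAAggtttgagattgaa

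The first 2 sequences carry the same 3 stretches in the same order, and the third carries a poly(A) signal that starts 20 bases from its end. On the transcript strand, TTTCTTTT stood in a 3′ window as long as the first sequence in 1.23% of 138900 annotated transcripts, TTTGCTTT in 0.634% and AAAGCAAA in 0.77%. All 3 in this order stood in 1 of them, Neat1-201. In the last 400 bases of 122312 transcripts they stood in this order in 2, Neat1-201 and Malat1-201. AATAAA stood in the last 60 bases of 27.2% of 141515 transcripts. TTTGCTTT and AAAGCAAA are reverse complements of each other, and a match is a string of letters, not a shown structure.

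**Figure D1:**
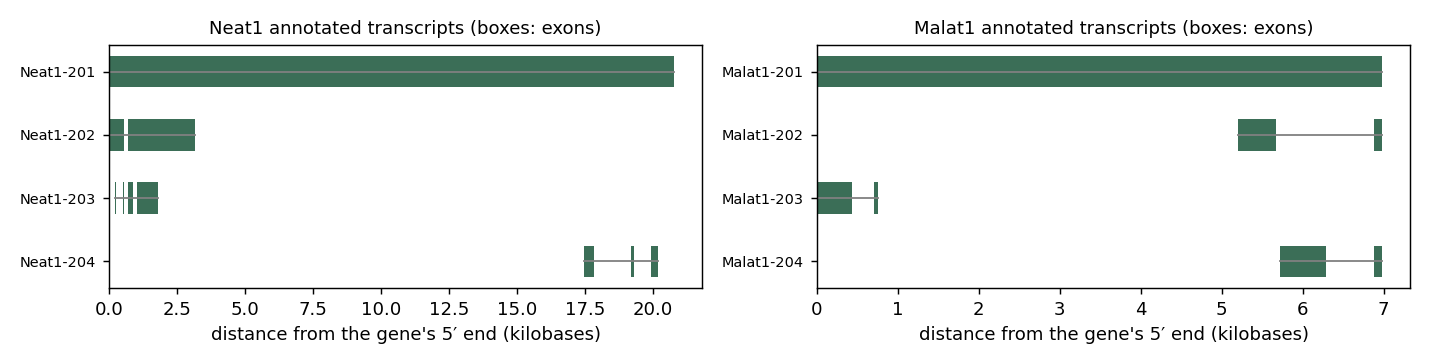
The annotated transcripts of Neat1 (left) and Malat1 (right), with exons as boxes along the distance from the 5′ end of each gene in kilobases, each panel on its own scale. Neat1-202 ends near the start of the 20771 bases of Neat1-201, and Malat1-201 covers all of Malat1.

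The 36 libraries held 16.3 to 78.1 M estimated counts in MON, 16.2 to 58.5 M in UON and 19.9 to 56.0 M in retina. Labels were checked against marker lists, each given as a sum of counts per M of library total (CPM, with M for mega, scaled by TMM over all 36 libraries). Photoreceptor markers summed to 57297 to 71832 CPM in retina and to at most 388 in UON and 170 in MON. Oligodendrocyte markers summed to 47798 to 168833 CPM in MON, 3678 to 45131 in UON and 78.3 to 144 in retina, so UON, named for its lack of myelin, still held myelin RNA. Astrocyte markers summed to 17531 to 29962 CPM in UON. In bulk tissue, fewer cells of a type and less RNA per cell cannot be told apart.

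In naïve tissue Neat1 was high in MON, low in UON and lowest in retina. Its level was 246 CPM in the female pool and 317 CPM in the male pool of MON, against 23.2 and 15.1 CPM in UON and 5.53 and 5.64 CPM in retina. The 3 tissues did not overlap. UON was lower than MON by a log2 difference of -3.93 (SE 0.31, adjusted p = 0.00139), MON was above retina by 5.66 (SE 0.34, adjusted p = 4.68e-05) and UON was above retina by 1.73 (SE 0.29, adjusted p = 0.00339). These are edgeR quasi-likelihood tests over 23685 genes, and a call needed a log2 difference beyond 1 together with an adjusted p below 0.05. In the same tests 9.63% of all genes were called for the 2 nerve segments (4.83% higher and 4.8% lower in UON), 31.7% when UON was set against retina and 27.6% when MON was. The naïve UON and MON libraries also entered the choice of Neat1, so none of these 3 tests is independent of it. Under limma on log2(FPKM + 1) the calls of UON against MON (adjusted p = 0.0602) and against retina (adjusted p = 0.168) were lost, the latter also in a fit of all 36 libraries (adjusted p = 0.179).

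Oligodendrocyte markers moved with Neat1 across the naïve tissues. Their sum was 126325 to 168833 CPM in MON, 22442 to 29335 CPM in UON and 104.6 to 114 CPM in retina. Of these markers 10 of 10 were called lower in UON than in MON, beside 4.8% of all genes. Microglia and macrophage markers summed to 1845 to 1953 CPM in MON, 1107 to 1347 CPM in UON and 56.9 to 65.8 CPM in retina. Astrocyte markers went the other way between the nerve segments, with 24089 to 28136 CPM in UON and 13646 to 19171 CPM in MON. So did markers of fibroblasts of sclera and meninges (3599 to 4340 CPM in UON, 657 to 801 CPM in MON). The part of these cells in the difference of Neat1 was not tested.

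Malat1 had another order in naïve tissue. It stood at 5798 and 5680 CPM in the female and male pools of retina, 4189 and 6164 CPM in MON and 2839 and 2383 CPM in UON. Retina and MON overlapped, and UON lay below both. UON was called lower than retina (log2 difference -1.17, SE 0.32, adjusted p = 0.0268). Its difference from MON was of like size (-1.01, SE 0.32, adjusted p = 0.0999) and not called, and MON and retina differed by -0.15 (SE 0.32, adjusted p = 0.772). The call against retina was lost when any of 4 libraries was left out, either naïve UON pool or either naïve retina pool, with log2 differences then of -0.88 to -1.47. Without the naïve female MON pool, UON was called lower than MON (-1.33, adjusted p = 0.0151).

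Because Neat1 is the longer RNA, levels of the 2 genes were compared per kilobase of their longest transcript. On that scale Malat1 exceeded Neat1 by 50.6 to 57.9 fold in the naïve MON pools, 365 to 469 fold in UON and 2997 to 3119 fold in retina. Malat1 was thus the more abundant RNA in each naïve library, and the ratio moved mostly with Neat1. The folds depend on the length taken, since part of the Neat1 counts lay on shorter isoforms. In FPKM, scaled by the authors for length and depth, Neat1 and Malat1 read 7.22 and 354 in the female UON pool and 1.04 and 278 in the male. In MON they read 18.8 and 471, and 67.6 and 798. In retina they read 0.433 and 936, and 0.376 and 943.

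**Figure D2:**
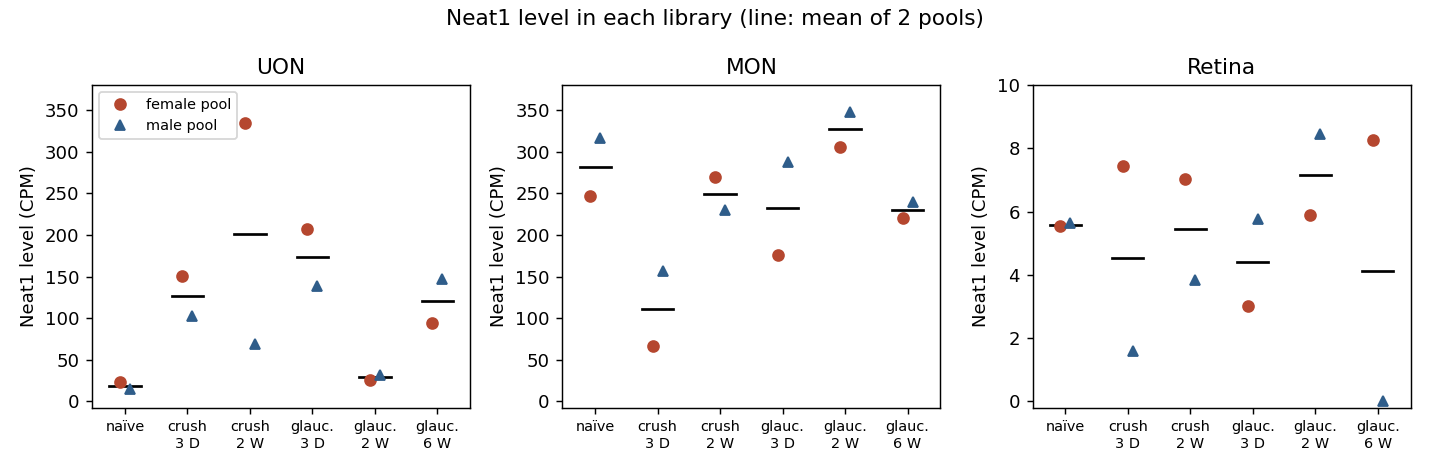
Neat1 level in CPM in each of the 36 libraries by tissue, treatment and time, with the female pool as a circle, the male pool as a triangle and the mean of the 2 pools as a line, and with a smaller axis for retina. Naïve UON (23.2 and 15.1 CPM) lies far below naïve MON (246 and 317 CPM), and the highest retina library reads 8.45 CPM.

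After crush, Neat1 was higher than naïve in both UON pools and lower in both MON pools at 3 D. In UON the female and male pools read 150 and 103 CPM at 3 D and 334 and 69.1 CPM at 2 W, against 23.2 and 15.1 CPM when naïve. In MON they read 66.3 and 157 CPM at 3 D and 269 and 230 CPM at 2 W, against 246 and 317 CPM when naïve. The groups did not overlap at both times in UON and at 3 D in MON, and they overlapped at 2 W in MON.

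The fitted log2 differences from naïve were 2.75 (SE 0.49) at 3 D and 3.09 (SE 0.51) at 2 W in UON, and -1.32 (SE 0.38) at 3 D and -0.09 (SE 0.37) at 2 W in MON. The opposite signs at 3 D are what Neat1 was chosen for. At 2 W the UON pools lay far apart. The male pool with 69.1 CPM of Neat1 had the lowest oligodendrocyte marker sum of the 12 UON libraries, 3678 CPM. The female pool read 25709 CPM. The male pool was also the deepest UON library (58.5 M counts) and the UON library with the fewest genes detected. It had 21317, against 24293 in the female pool. In MON at 3 D the oligodendrocyte sum was 73933 to 88853 CPM, below its naïve range, and at 2 W it was lower again (47798 to 61022 CPM) while Neat1 overlapped its naïve range. Microglia and macrophage markers summed to 4273 to 5164 CPM at 3 D and 5538 to 9280 CPM at 2 W in MON, and to 1308 to 2030 CPM and 2389 to 3835 CPM in UON. Blood markers in UON summed to 618 to 1672 CPM at 3 D and 3786 to 4861 CPM at 2 W, against 238 to 556 CPM when naïve. Their part in the change of Neat1 was not tested.

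Glaucoma was compared with the same naïve libraries as crush, so the comparisons share their controls. In UON, Neat1 read 207 and 139 CPM in the female and male pools at 3 D, 26.3 and 31.7 CPM at 2 W and 94.8 and 147 CPM at 6 W. All 6 pools lay above both naïve pools, by a wide margin at 3 D and 6 W and a narrow one at 2 W. The log2 differences were 3.19 (SE 0.38, adjusted p = 0.232), 0.62 (SE 0.36, adjusted p = 1) and 2.66 (SE 0.38, adjusted p = 1), so none was called by edgeR. That test called 0% of 22438 genes at each time, with 868, 801 and 451 genes at an unadjusted p under 0.05.

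The outcome of this test turned on the tool and on the filter for low counts. With no filter, edgeR called Neat1 at 3 D (log2 difference 3.17, adjusted p = 0.000674) and 6 W (2.67, adjusted p = 0.0175). That setting called 27 genes in all at 3 D, 0 at 2 W and 2 at 6 W. DESeq2 called 130 genes at 3 D, 73 at 2 W and 33 at 6 W (0.635%, 0.282% and 0.155% of those it tested), and Neat1 was among those of 3 D (log2 difference 3.21, SE 0.41, adjusted p = 2.84e-11) and 6 W (2.67, SE 0.41, adjusted p = 4.82e-07) but not of 2 W (0.64). The oligodendrocyte sum in UON was 19423 to 45131 CPM at 3 D, 10275 to 16883 CPM at 2 W and 16732 to 38849 CPM at 6 W, against 22442 to 29335 CPM when naïve. The sum was thus lowest at 2 W, while Neat1 was lowest in the naïve pools. Microglia and macrophage markers in UON summed to 1724 to 1728 CPM at 3 D, 1350 to 1782 CPM at 2 W and 1024 to 2086 CPM at 6 W, against 1107 to 1347 CPM when naïve. The part of these cells in the values of Neat1 was not tested. The naïve UON pools also entered the choice of Neat1, so these tests share libraries with it. A naïve UON level low by chance would favour both the choice and a rise here.

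In MON after microbead injection Neat1 stayed near naïve. Its pools read 176 and 287 CPM at 3 D, 306 and 348 CPM at 2 W and 220 and 240 CPM at 6 W. They overlapped naïve MON at 3 D and 2 W and lay just below it at 6 W. The log2 differences were -0.34, 0.21 and -0.33 (SE 0.22 each, adjusted p = 0.751, 0.846 and 0.849). edgeR called 0% of 22960 genes at each time, with 1854, 2017 and 1127 genes at an unadjusted p under 0.05, and DESeq2 called 430, 496 and 65 genes, without Neat1.

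In retina Neat1 was low. The 12 libraries held 0 to 448 counts, or 0 to 8.45 CPM. The female pool at glaucoma 6 W read 8.27 CPM and the male pool was listed at 0 counts, which allows up to 0.0885 CPM when 3 counts are taken as the limit. Fitted log2 differences from naïve ran from -0.70 to 0.38 over the 5 injured groups with adjusted p of at least 0.907, so none was called. By edgeR 0.0221% of genes were called at crush 3 D (0.0176% higher and 0.00441% lower), 0.313% at crush 2 W (0.075% higher and 0.238% lower), 0.00429% at glaucoma 3 D, 0% at 2 W (1465 genes at an unadjusted p under 0.05, and 99 called by DESeq2) and 0.00858% at 6 W.

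**Figure D3:**
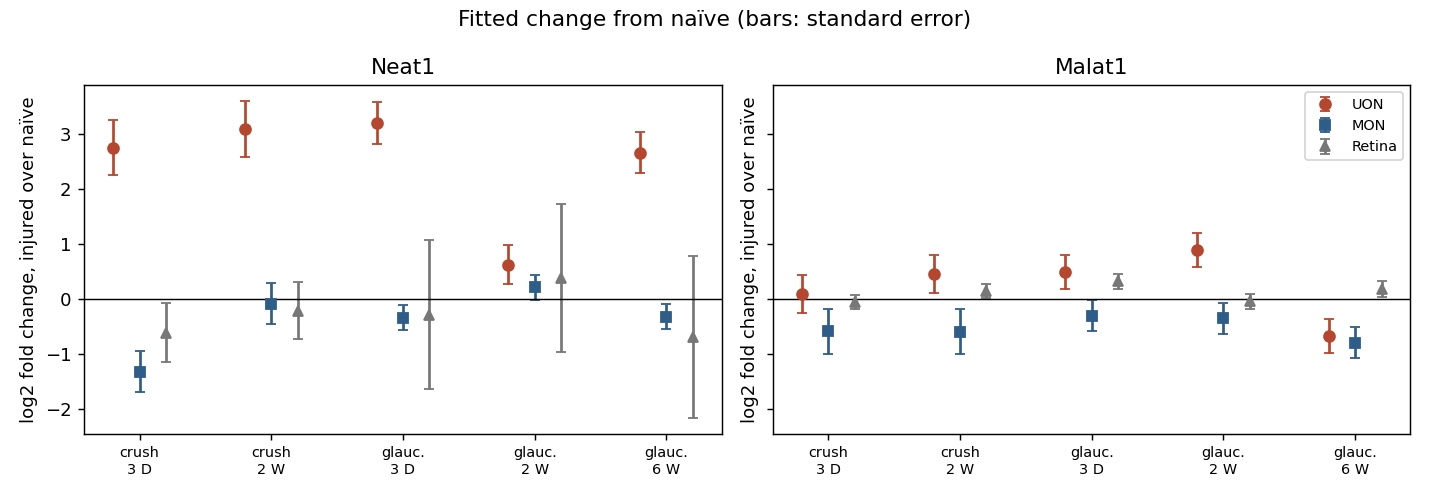
Fitted log2 difference from naïve for Neat1 (left) and Malat1 (right) in UON, MON and retina at each time after injury. Bars show the standard error derived from the edgeR F statistic, with n = 2 pools a group. In UON, Neat1 lies between 2.66 and 3.19 at 4 of 5 times and at 0.62 at glaucoma 2 W, while each Malat1 value lies between -0.80 and 0.89.

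The difference of the glaucoma response between UON and MON was tested as an interaction. For Neat1 it was 3.48 (SE 0.44, adjusted p = 0.137) at 3 D, 0.35 (SE 0.43, adjusted p = 0.947) at 2 W and 3.00 (SE 0.44, adjusted p = 0.767) at 6 W on the log2 scale. edgeR called 0% of 25807 genes at each time, with 1290, 1434 and 651 genes at an unadjusted p under 0.05. DESeq2 called 0.345%, 0.421% and 0.148%, Neat1 among them at 3 D (3.59, adjusted p = 6.33e-09) and 6 W (3.04, adjusted p = 2.98e-06). The naïve pools of both segments entered the choice of Neat1, so these tests are not independent of it. Naïve levels low in UON or high in MON by chance would favour both the choice and these differences. With the pool of mice as a block across the tissues, an alternative added after seeing the data, edgeR again called neither (3.49, adjusted p = 0.340, and 2.98, adjusted p = 0.255). Leaving out the male UON pool at glaucoma 3 D, or either UON pool at glaucoma 6 W, put the 3 D difference of Neat1 past the edgeR threshold. The crush responses of UON and MON, given as a description, differed by 4.12 (SE 0.68) at 3 D and 3.20 (SE 0.68) at 2 W.

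Crush and glaucoma gave UON like levels of Neat1 at 3 D and unlike levels at 2 W. At 3 D the crush pools (150 and 103 CPM) overlapped the glaucoma pools (207 and 139 CPM), with a log2 difference of -0.44 (SE 0.54). At 2 W the crush pools (334 and 69.1 CPM) both lay above the glaucoma pools (26.3 and 31.7 CPM), with a difference of 2.60 (SE 0.58), or 1.32 without the female crush pool. In MON the differences were -1.05 (SE 0.31) at 3 D and -0.34 (SE 0.31) at 2 W. These 4 use the crush libraries that chose Neat1 and are not tested.

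Malat1 was not called in any of the 15 comparisons of injury with naïve, by edgeR or by DESeq2. In UON it read 3097 and 2418 CPM (female and male pool) at crush 3 D, 4945 and 2569 CPM at crush 2 W, 4769 and 2588 CPM at glaucoma 3 D, 4271 and 5121 CPM at 2 W and 1789 and 1514 CPM at 6 W. The groups at glaucoma 2 W and 6 W lay above and below naïve UON (2839 and 2383 CPM), and the other 3 overlapped it. The 2 W and 6 W differences were 0.89 (SE 0.31) and -0.67 (SE 0.31), both with an adjusted p of 1. At 6 W Malat1 was thus at its lowest of the 18 groups while Neat1 stood above its naïve level in the same libraries.

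In MON, Malat1 read 3113 and 3357 CPM at crush 3 D, 3633 and 2958 CPM at crush 2 W, 4048 and 4556 CPM at glaucoma 3 D, 4288 and 3849 CPM at 2 W and 3020 and 3115 CPM at 6 W. Both crush groups and the 6 W group lay below naïve MON (4189 and 6164 CPM). The log2 differences ran from -0.80 to -0.30 with adjusted p of at least 0.467, and edgeR called 4.26% of 19988 genes in this tissue at crush 3 D (3.61% higher and 0.655% lower) and 2.72% at crush 2 W (2.13% higher and 0.595% lower). In retina Malat1 stayed between 4815 and 7814 CPM, with differences from naïve of -0.06 to 0.32 and adjusted p of at least 0.813. Over the 15 comparisons 3 had an unadjusted p under 0.05, glaucoma 2 W in UON, 6 W in MON and 3 D in retina. In UON, edgeR called 0% of 21368 genes at crush 3 D (657 at an unadjusted p under 0.05, and 211 called by DESeq2) and 0.0281% at crush 2 W.

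None of the 15 differences of the Malat1 response between tissues was called by edgeR or DESeq2. Of these, 3 had an unadjusted p under 0.05 and the lowest adjusted p was 0.474. The largest was the glaucoma 2 W response of UON against MON (log2 1.17, SE 0.45, adjusted p = 0.872).

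**Figure D4:**
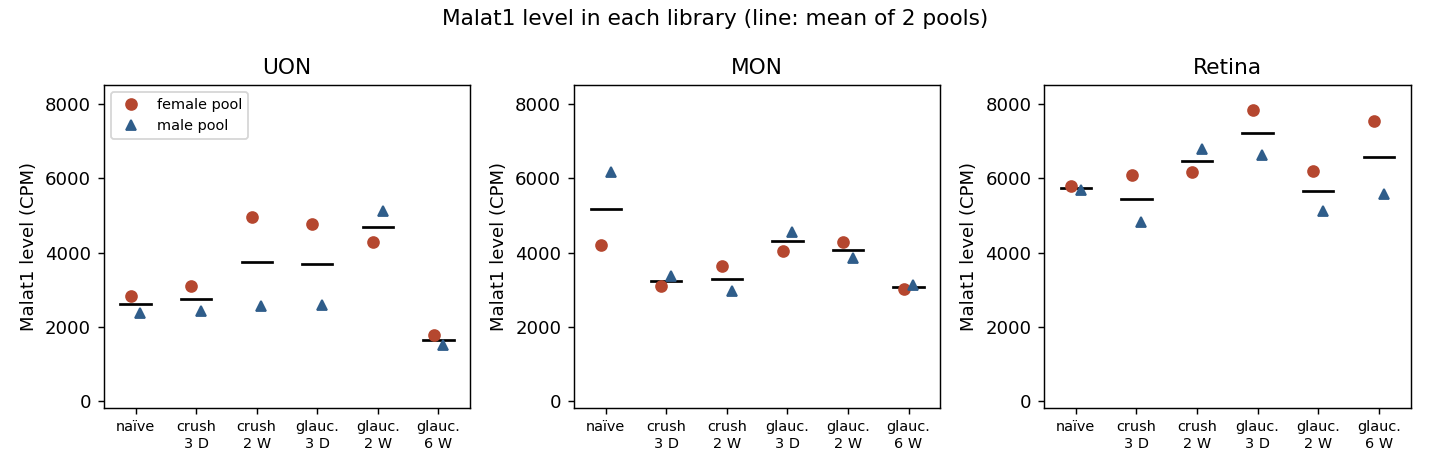
Malat1 level in CPM in each of the 36 libraries by tissue, treatment and time, with the female pool as a circle, the male pool as a triangle and the mean of the 2 pools as a line, on the same axis for each tissue. Retina lies between 4815 and 7814 CPM, and UON at glaucoma 6 W is lowest with 1789 and 1514 CPM.

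Ordered by mean level, the 18 groups put Neat1 highest in MON at glaucoma 2 W (327 ± 29.8 CPM, SD, n = 2 pools) and naïve MON (281 ± 49.8 CPM). Injured MON and injured UON followed and mixed, down to MON at crush 3 D (112 ± 64.0 CPM). Then came UON at glaucoma 2 W (29.0 ± 3.86 CPM), naïve UON (19.1 ± 5.69 CPM) and the 6 retina groups (4.14 to 7.17 CPM). Only 4 of the 17 neighbouring pairs did not overlap, those that set off UON at glaucoma 2 W, naïve UON, retina at glaucoma 2 W and naïve retina from the group above each. For Malat1 the 6 retina groups came first (5443 to 7218 CPM), then naïve MON (5176 ± 1397 CPM), with naïve UON (2611 ± 322 CPM) and UON at glaucoma 6 W (1651 ± 195 CPM) last, and 2 of 17 pairs did not overlap. The female pool was the higher in 8 of 18 groups for Neat1 and in 12 of 18 for Malat1.

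The transcript table divides these counts among isoforms. Counts come from coverage and grow with transcript length, so a share of counts is not a share of molecules. Summed over a gene's transcripts it equalled the gene count in 36 of 36 libraries. Neat1-201 took 34.1% to 92.9% of the Neat1 counts in UON (median 83.1%), 48.0% to 86.9% in MON (median 64.2%) and a median of 100% in the 11 retina libraries with any. Neat1-202 took 3.35% to 47.4% in UON and 4.14% to 15.5% in MON. Neat1-203, a transcript of 1030 bases in 4 exons near the 5′ end, took 0.281% to 27.8% and 3.16% to 38.8%, and Neat1-204 was at 0 in 36 of 36 libraries.

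The naïve UON pools disagreed on the makeup of Neat1. The female pool had 353 counts of Neat1-201, 429 of Neat1-202 and 252 of Neat1-203, and the male pool had 549, 78 and 6. The naïve MON pools had 13343 and 3476 counts of Neat1-201 in the female and male pool, 1636 and 815 of Neat1-202, and 489 and 975 of Neat1-203. Scaled for depth, Neat1-201 stood at 7.91 and 13.1 CPM in naïve UON and 212 and 209 CPM in naïve MON, so the tissues lay far apart in the long isoform, while Neat1-202 stood at 9.61 and 1.86 CPM in the same UON pools. Between UON and MON the log2 difference was -4.10 (SE 0.43, adjusted p = 0.501) for Neat1-201 and -2.79 (SE 1.23, adjusted p = 0.710) for Neat1-202. In retina Neat1-202 was at 0 in 11 of 12 libraries, while it read 26.0 and 49.0 CPM in the naïve MON pools. The remaining retina library, the female pool at glaucoma 3 D, had all of its 78 Neat1 counts on Neat1-202.

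Under glaucoma at 3 D and 6 W most Neat1 counts of UON lay on the long isoform. Per kilobase of transcript, Neat1-203 was the largest part in both pools at 3 D and in the female pool at 6 W. At 3 D the female and male pools read 7.36 and 5.51 CPM for Neat1-201, 3.85 and 3.37 for Neat1-202 and 41.5 and 14.2 for Neat1-203. At 6 W these were 3.83 and 6.56, 3.03 and 2.89, and 5.87 and 1.73. At glaucoma 3 D the female and male pools held 2926 and 5318 counts of Neat1-201, 221 and 470 of Neat1-202 and 817 and 678 of Neat1-203. At 6 W they held 3754 and 5500 of Neat1-201, 429 and 351 of Neat1-202 and 285 and 72 of Neat1-203. In CPM, Neat1-201 went from 7.91 and 13.1 when naïve to 153 and 114 at 3 D and 79.6 and 136 at 6 W, while Neat1-202 went from 9.61 and 1.86 to 11.6 and 10.1 and to 9.10 and 8.69. Neat1-203 went from 5.64 and 0.143 to 42.7 and 14.6 at 3 D and 6.04 and 1.78 at 6 W, with log2 differences of 3.74 (SE 1.77) and 0.92 (SE 1.62). The log2 differences were 3.62 (SE 0.44) and 3.37 (SE 0.43) for Neat1-201, and 1.11 (SE 0.87) and 0.94 (SE 0.87) for Neat1-202, each with an adjusted p of 1 by edgeR. After crush, given as a description, the UON pools held 6274 and 2293 counts of Neat1-201 at 3 D and 14307 and 1863 at 2 W, with 227 and 142 and then 1078 and 1688 of Neat1-202. The male pool at 2 W, low in Neat1, was the UON library with the largest share of Neat1-202 (47.4%).

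In MON at crush 3 D the female and male pools held 31.8 and 136 CPM of Neat1-201, 8.76 and 6.49 CPM of Neat1-202 and 25.7 and 14.0 CPM of Neat1-203. The long and the short isoform lay below the naïve pools (212 and 209 CPM, and 26.0 and 49.0 CPM), while Neat1-203 lay between the naïve values of 7.78 and 58.6 CPM. At glaucoma 2 W in MON, Neat1-203 read 90.7 and 100.4 CPM, above both naïve pools (log2 difference 1.96, SE 0.77, adjusted p = 1), while Neat1-201 read 182 and 218 CPM and overlapped them.

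No transcript of either gene was called by edgeR. In naïve tissue 5 of 9 tests of Neat1 transcripts had an unadjusted p under 0.05, and DESeq2 called 5 (beside 1.98% of all transcripts for UON against MON, 14.7% for UON against retina and 11% for MON against retina), among them Neat1-201 lower in UON than in MON (log2 difference -4.01, adjusted p = 0.0224). With injury DESeq2 called 2, Neat1-201 in UON at glaucoma 3 D (3.59, adjusted p = 0.000127) and 6 W (3.41, adjusted p = 0.000556). There it called 1.29% and 0.938% of all transcripts. The naïve UON and MON pools also entered the choice of Neat1, so these tests of its transcripts are not independent of it. edgeR called 0% of transcripts between naïve UON and MON (4777 of 65568 at an unadjusted p under 0.05, and 1007 called by DESeq2) and 0% in each comparison with injury. Against retina it called 0.895% for UON and 0.249% for MON. Malat1 was simpler, with 98.5% to 99.5% of its counts on Malat1-201, the transcript over the whole gene, 0.489% to 1.51% on Malat1-203, and both others at 0 in at least 23 of 36 libraries. DESeq2 called 1 of its transcript tests with injury, Malat1-204 in retina at crush 3 D, and edgeR called 0 of 44, with 7 at an unadjusted p under 0.05.

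**Figure D5:**
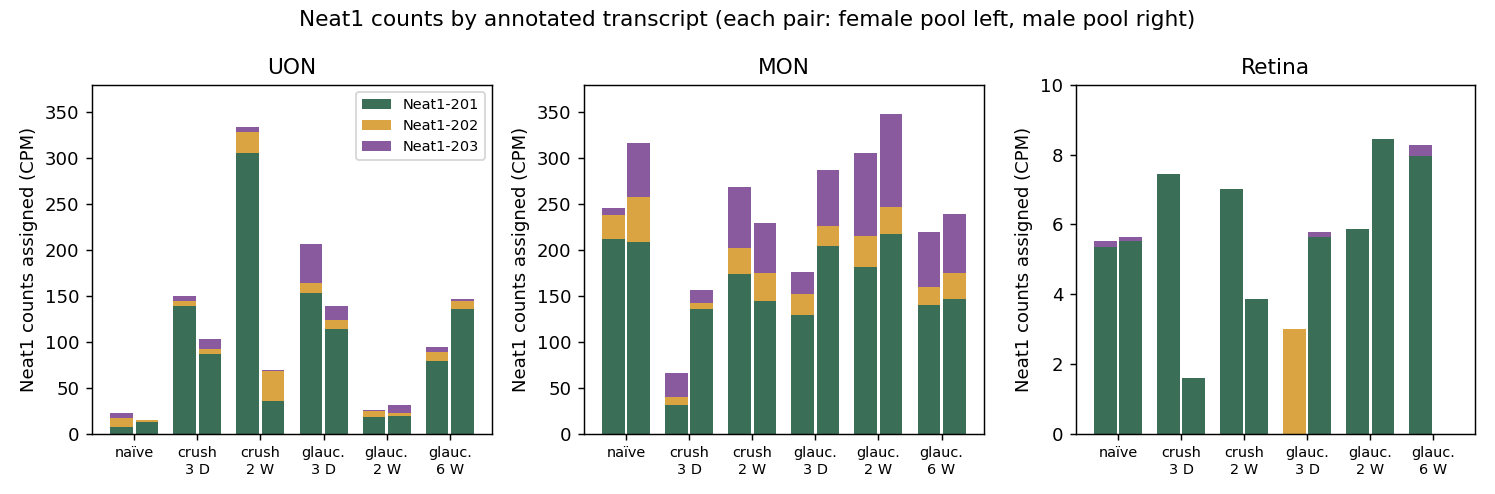
Neat1 counts in CPM as divided among Neat1-201, Neat1-202 and Neat1-203 in each library (stacked bars from 0, female pool left and male pool right of each pair), with a smaller axis for retina. Neat1-201 is the largest part of each injured UON bar, with 52.3% in the male pool at crush 2 W and up to 92.9% at glaucoma 6 W, and retina bars are nearly all Neat1-201 apart from the female pool at glaucoma 3 D. Bars show counts that are not scaled for transcript length.

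Short genes annotated inside Neat1 also take reads, and they are counted apart from it. Gm28006, Gm27505 and Gm27533 (122, 110 and 152 bases, minus strand) lie at chr19:5844286-5845037, near the 5′ end of Neat1. In naïve UON they held 354 and 206 counts, or 25.5% and 24.6% of the sum with Neat1. At 3 D of glaucoma in UON they held 7.49% and 5.78%, at 6 W 6.86% and 2.84%, and at 2 W 29.4% and 22.9%. The share was highest in the 4 UON libraries with the least Neat1 after scaling, and Neat1 is part of the sum it is taken from. With these counts added to Neat1, a choice made after seeing the data, UON and MON differed by -3.63 when naïve, and the glaucoma differences in UON were 2.88 at 3 D, 0.64 at 2 W and 2.32 at 6 W, none of these 3 called. The male retina pool at glaucoma 6 W had 6 such counts, so the locus was not empty in that library. In Malat1 the short genes Gm27694 and Gm37376 held at most 0.910% of the sum.

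The genes whose levels ran most like the members were sought among 10972 genes of at least 10 CPM, by Pearson's r of log2 CPM over the 36 libraries, which share tissue and depth. For Neat1 they were Acss1 (r = 0.92), Edem1 (0.91), Olfml1 (0.91), Mog (0.90), a gene of the outer myelin sheath, and Lratd1 (0.90). For Malat1 they were Rbm25 (0.89), a splicing factor, 6430590A07Rik (0.89), Pnisr (0.89), Paxbp1 (0.88) and Kcnq1ot1 (0.87), a noncoding RNA of an imprinted locus. After the mean of each tissue was subtracted, Usp49 (0.77), Rasgrp3 (0.67), Iffo2 (0.64), Tmem198b (0.61) and Btbd2 (0.61) led for Neat1, so no gene of the first list stayed. For Malat1 Rbm25 (0.83), 6430590A07Rik (0.76) and Paxbp1 (0.73) stayed, joined by Gm43481 (0.76) and Mon2 (0.75). Neat1 and Malat1 themselves had r = -0.51 over the 36 libraries and 0.13 within tissues, with 0.03 in UON, 0.49 in MON and 0.25 in retina. The male retina pool at glaucoma 6 W, with 0 counts of Neat1, stood at a log2 CPM of -4.35, while the other retina libraries read at least 0.72. It thus weighs heavily in each r of Neat1 taken within tissues or in retina, and r without it was not computed.

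Few proteins of paraspeckles were called between naïve tissues and none with injury, where edgeR called at most 4.26% of all genes in any comparison. The list held 24, with a median log2 difference between naïve UON and MON of -0.20, beside -0.06 for all genes. None was called higher in UON than in MON, beside 4.83% of all genes. The core proteins Sfpq (-0.78), Nono (0.31), Pspc1 (-0.29) and Rbm14 (0.15) were not called there. Against retina, UON had 6 lower and none higher, beside 13.5% and 18.2% of all genes. The lower ones were led by Cirbp, a cold-induced RNA binding protein (-2.06, SE 0.26), Sfpq (-1.38, SE 0.20), Zc3h6 (-1.33, SE 0.41) and Hnrnpa1 (-1.20, SE 0.21). Against retina, MON had Cirbp alone (-2.10, SE 0.26), beside 10.9% of all genes lower and 16.7% higher. In the 15 comparisons with injury none of the 24 was called, and the medians stayed between -0.09 and 0.25. In UON at glaucoma 3 D, the group with the highest fitted Neat1 response, Sfpq stood at 0.42, Nono at -0.13, Pspc1 at 0.02 and Rbm14 at -0.21.

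Factors that choose between the isoforms or process the 3′ end were tested as a list of 12. None was called between UON and MON, beside 9.63% of all genes, or with injury, where edgeR called at most 4.26% of all genes. This list holds Nudt21 and Cpsf6, of the complex that favours the early poly(A) signal, and Hnrnpk, which opposes it. Cpsf6 (-1.11, SE 0.21) and Tardbp (-1.12, SE 0.20) were called lower in UON than in retina, beside 13.5% of all genes.

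Proteins of nuclear speckles, the bodies of Malat1, were lower in UON than in retina in 9 of 27 and higher in 1, against 13.5% and 18.2% of all genes in these directions. The lower ones were led by Luc7l3 (-2.21, SE 0.21), Srsf2 (-1.68, SE 0.21), Clk1, a kinase of splicing factors (-1.45, SE 0.21) and Rbm25 (-1.41, SE 0.20). Between UON and MON only Luc7l3 was called (-1.26, SE 0.20, adjusted p = 0.0107), beside 9.63% of all genes. Between MON and retina U2af2 was higher (1.33, SE 0.25) and Srsf3 (-1.05) and Srsf2 (-1.02) were lower, beside 16.7% and 10.9%. None of the 27 was called with injury in any tissue, where edgeR called at most 4.26% of all genes.

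Among 29 other long noncoding RNAs, Pantr1 (-2.47, SE 0.55) and Snhg11 (-1.98, SE 0.32) were lower in naïve UON than in MON and none was higher. This stands beside 4.8% and 4.83% of all genes, and the list had a median of -0.96. Against retina, 12 were lower and 4 higher in UON, beside 13.5% and 18.2% of all genes, and 8 lower and 4 higher in MON, beside 10.9% and 16.7%. Those lower in UON were led by Mir124a-1hg (-14.21, SE 1.40), host of a neuronal microRNA, Meg3 (-6.11, SE 0.43), Snhg11 (-5.85, SE 0.37) and Miat (-5.79, SE 0.93). The fold of Mir124a-1hg rests on UON pools near 0 and depends on the fit. With injury 1 was called, Snhg11 in MON at crush 3 D (-2.26, SE 0.44, adjusted p = 0.0363), beside 0.655% of all genes called lower there.

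The list of stress factors known to act on Neat1, with their target genes, held 20. In naïve UON against MON Adm (2.50, SE 0.32) and Vegfa (1.73, SE 0.31), both targets of the hypoxia factor, were higher and none was lower, beside 4.83% and 4.8% of all genes. After crush in MON the factors Runx1 (2.50, SE 0.42), Hif1a (1.71, SE 0.30), Atf3 (1.59, SE 0.28) and Trp53 (1.21, SE 0.26) rose at 3 D, 4 of 20 beside the 3.61% of all genes called higher. At 2 W Atf3 (2.47, SE 0.29), Runx1 (2.38, SE 0.42) and Hif1a (1.70, SE 0.30) were called higher, 3 of 20 beside 2.13%. None was called in UON after crush or in any glaucoma group, where at most 0.0281% of all genes were.

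The 14 tested neighbours of both genes on chromosome 19 moved in both directions. In naïve UON against MON Cdc42ep2 (-3.21, SE 0.25) and Frmd8 (-1.36, SE 0.24) were lower and Ltbp3, a binding partner of latent TGFβ (2.03, SE 0.22), was higher. Of all genes, 4.8% were called lower there and 4.83% higher. Against retina 7 were higher in UON and 6 in MON, beside 18.2% and 16.7% of all genes, led in MON by Slc25a45 (6.34, SE 0.53), Frmd8 (5.38, SE 0.28), Cdc42ep2 (4.44, SE 0.27) and Map3k11 (2.57, SE 0.25), and none was lower. After crush in MON, Fam89b (2.18, SE 0.46) and Ehbp1l1 (1.99, SE 0.32) rose at 3 D and Ehbp1l1 (1.69, SE 0.32) at 2 W, beside 3.61% and 2.13% of all genes. None of the 14 was called in UON with injury, where at most 0.0281% of all genes were.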

How the data were processed

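The authors sequenced paired-end libraries made with an ultra-low-input kit, aligned reads to GRCm38 with HISAT2 2.2.1 and estimated abundance with StringTie 1.3.0. The deposited tables hold estimated counts per gene and per transcript, derived from coverage at 74.9 bases a count, so a count is not a read. The deposited FPKM values are scaled by the authors for length and depth, and 15 values below 0 were set to 0. The strand setting and the priming of the kit are not given in the sources used here. It is thus not known whether RNAs without a poly(A) tail were captured like those with one.

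Counts were rounded, and genes were kept by edgeR's filterByExpr (minimum count 10, minimum total 15). edgeR 4.0.16 in R 4.3.3 gave quasi-likelihood tests with TMM scaling, a term for sex and Benjamini-Hochberg adjustment over all genes. The SE of an edgeR value was derived as the absolute log2 difference over the square root of its F statistic. Calls needed a log2 difference beyond 1 together with an adjusted p below 0.05. Each injury was fitted with the naïve libraries of its tissue, and differences between tissues as interactions. CPM used TMM over 30097 genes in 36 libraries. A prior count of 2 entered the log2 CPM values and not the fitted log2 differences. Alternatives were DESeq2 1.42.0, its size factors in edgeR, limma 3.58.1 on log2(FPKM + 1), no filter, no sex term, 1 joint fit and leaving out each library. Scripts were tested on simulated data. Precision is limited by 2 pools a group, and count limits cover counting error only. Similar genes were the 5 with the highest r per measure, and named list genes were up to 4 called with the largest change. The members and the gene lists were chosen with earlier results of these data known. Columns of the count tables matched their own library's file best in 36 of 36 cases.

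Same-sex libraries of the 3 tissues came from the same pool of mice, so the sex term is also the block for pools in the naïve comparison. The titles carry no replicate numbers. The result of 1 listed gene is not reported here.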

Additional observations from a re-analysis of the deposited data

Results flagged for a closer look

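Each gene was searched over its 15 differences in response between tissues for pools that moved in opposite directions. In 8 comparisons both pools of one tissue moved one way, and both pools of the other moved the opposite way. Each pool was set against the naïve pool of its sex. How many of all genes show this pattern was not counted. None of the tested differences was called by edgeR, and those of Neat1 share naïve pools with its choice. For Neat1, UON minus MON, the log2 differences were 4.12 at crush 3 D, which was not tested since Neat1 was chosen for it, 3.48 at glaucoma 3 D (adjusted p = 0.137) and 3.00 at glaucoma 6 W (adjusted p = 0.767). The Neat1 values in UON were 2.70 in the female pool and 2.77 in the male pool at crush 3 D, 3.16 and 3.20 at glaucoma 3 D and 2.03 and 3.27 at glaucoma 6 W. Those in MON were -1.89 and -1.01, -0.48 and -0.14, and -0.16 and -0.40.

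For Malat1, UON minus MON, the differences were 0.72 at crush 3 D (adjusted p = 0.943), 1.06 at crush 2 W (adjusted p = 0.600) and 0.73 at glaucoma 3 D (adjusted p = 0.877). For MON minus retina they were -0.81 at crush 2 W (adjusted p = 0.474) and -0.58 at glaucoma 3 D (adjusted p = 0.857). All are edgeR values with n = 2 pools a group. Oligodendrocyte and microglia markers also differed between MON groups, and their part in these differences was not tested.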

How the results depend on the processing

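Of the differences in response between tissues, 0 were called by edgeR, 2 by DESeq2, 2 with no filter and 1 with no sex term (no replicate block), all of Neat1. Leaving out 1 library gave 0 to 1, with 1 without the male UON pool at glaucoma 3 D or either UON pool at 6 W. Neat1 in UON was called at glaucoma 3 D by DESeq2 (3.21) and with no filter (3.17, adjusted p = 0.000674), and at 6 W by DESeq2 (2.67) and with no filter (2.67, adjusted p = 0.0175). The naïve pools behind these Neat1 calls and those of the tissue differences also chose the gene, which favours values in this direction. In naïve tissue the Neat1 calls were lost under limma for UON minus MON (-3.17, adjusted p = 0.0602) and UON minus retina (1.55, adjusted p = 0.168), the latter also in the fit of 36 libraries (1.75, adjusted p = 0.179), which called Malat1 in UON minus MON (-1.01, adjusted p = 0.0327).

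Limma turned the sign of small differences, none called: Neat1 in MON at glaucoma 3 D (0.17) and 6 W (0.61), in retina at glaucoma 3 D (0.30) and 2 W (-0.038), and between UON and MON at glaucoma 2 W (-0.51), and Malat1 in retina at crush 3 D (0.075) and glaucoma 2 W (0.0090). It also gave 1.75 for Neat1 in UON at crush 3 D and 0.83 in MON at crush 2 W. The cause was not tested.

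Leaving out 1 library gave Malat1 differences of -1.33 to -0.63 for naïve UON minus MON, -1.47 to -0.88 for UON minus retina and -0.51 to 0.19 for MON minus retina. Against naïve, Malat1 ranged from -0.11 to 0.30 in UON at crush 3 D, -0.60 to 0.059 in MON at glaucoma 3 D, and in retina -0.30 to 0.16 at crush 3 D, -0.050 to 0.32 at crush 2 W and -0.22 to 0.13 at glaucoma 2 W. Neat1 ranged from 2.24 to 3.21 in UON at crush 3 D, -1.98 to -0.80 in MON at crush 3 D and -0.64 to 0.37 at crush 2 W. In retina it ranged from -1.63 to 0.24 at crush 3 D, -0.89 to 0.67 at crush 2 W, -1.50 to 0.45 at glaucoma 3 D, -0.51 to 0.98 at 2 W and -1.25 to 0.76 at 6 W. Neat1-202 in UON at glaucoma 2 W ranged from -0.90 to 1.095. In these fits a lone library is assumed to vary like the other groups, and 3 fits that left a group at 0 gave no fold. By DESeq2, Neat1-201 was called in naïve UON minus MON (-4.01) and in UON at glaucoma 3 D (3.59) and 6 W (3.41). The naïve pools behind these transcript calls also entered the choice of Neat1.

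Adding the counts of the short overlapping genes, chosen after seeing the data, changed no call and gave 3.56 for the Neat1 crush response at 3 D, UON minus MON. The sex term is the replicate block of the naïve comparison, and without it no call changed there. The tissue differences were refitted with a replicate block of mouse pools, also added after seeing the data, which called 0 of them, with values of 3.49, 0.37 and 2.98 for Neat1 at glaucoma 3 D, 2 W and 6 W, UON minus MON.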
